A study of Mus musculus with 16 samples.

Results

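Ddit4, the 3 sestrins and 6 components of the mTORC1 switch were followed across 16 RNA-seq libraries of sorted mouse muscle stem cells (MuSCs). The 10 genes (Ddit4, Sesn1, Sesn2, Sesn3, Tsc1, Tsc2, Rheb, Mtor, Rptor and Deptor) were taken by symbol from the 24411 genes of the table, and all 10 were found and passed the filter on low counts in every comparison. They were chosen by what earlier analysis of these same libraries had shown for some of them. Their own values are therefore a description, with whether each gene passed the thresholds but without its p-value.

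The libraries form 4 groups of 4. Control and TRF2 knockout MuSCs were taken from uninjured hindlimb muscle, or 3 days after injury (3 DPI) with notexin, a snake venom phospholipase that kills muscle fibres, of which 10 µl was injected into the tibialis anterior. Knockout mice carried a TRF2-floxed allele (the gene Terf2, whose product binds and protects telomeres) and a tamoxifen-inducible Cre driven by Pax7, so deletion was limited to Pax7-expressing cells and their progeny, and tamoxifen was begun in young adults on a C57BL/6 background. The labels call the controls wild type and do not say whether they carried Cre or received tamoxifen. Mice of 3 months are described for gene expression in MuSCs of these conditions, without the assay being named, and whether animals were pooled is not given in the sources used here, so the spread between libraries may be partly technical. Sorting removed cells bearing CD45, CD31, CD11b or Sca1 and kept cells positive for α7-integrin together with VCAM or CD34.

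mTORC1 is the kinase complex that drives protein synthesis and growth when amino acids and growth factors are present. Rheb on the lysosome switches it on, and the Tsc1-Tsc2 complex holds Rheb inactive. Ddit4 (also called REDD1), induced by low oxygen, glucocorticoids and energy stress, acts through that complex as a brake, and the sestrins brake the same kinase through the amino acid branch. In resting MuSCs, mTORC1 activity is known to accompany the passage from deep quiescence towards activation.

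The promoters of Ddit4 and Sesn2 are shown because these genes differed most, in opposite directions, between the genotypes before injury. The stretch given for each ends at the base before the first base of the gene in GENCODE M21, which can differ from the RefSeq start, on the minus strand of GRCm38 (RefSeq GRCm38.p6), for Ddit4 at chr10:59951835-59952020 and for Sesn2 at chr4:132510502-132510706. Capitals mark matches on either strand to ACGTG, the core of the hypoxia response element, and to GGGCGG, the GC box.
Ddit4: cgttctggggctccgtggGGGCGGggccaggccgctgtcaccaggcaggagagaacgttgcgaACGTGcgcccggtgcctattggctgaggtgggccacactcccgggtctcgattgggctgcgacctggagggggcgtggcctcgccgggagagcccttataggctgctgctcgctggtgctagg
Sesn2: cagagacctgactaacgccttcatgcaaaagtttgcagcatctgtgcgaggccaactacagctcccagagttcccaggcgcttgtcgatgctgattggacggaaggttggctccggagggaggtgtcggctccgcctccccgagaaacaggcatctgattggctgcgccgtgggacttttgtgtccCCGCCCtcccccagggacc
Both are rich in G and C, at 69.9% for Ddit4 over 186 bases and 61% for Sesn2 over 205 bases. In windows from 250 bases before to 50 after the RefSeq start, the hypoxia core was present for 3 of the 9 genes with a window (Ddit4, Rheb and Rptor) and in 19.6% of all 32851 windows. The GC box was present for 6 of the 9 genes against 35.7% of all windows. The letters GTAAACA, bound by FoxO factors, and the degenerate p53 decamer were each found for Sesn1 alone, against 3.65% and 8.36% of all windows. TATAAA, the glucocorticoid element letters TGTTCT and the ATF4 element TTGCATCA were in none of the 9, against 13.6%, 19% and 0.895% of all windows. These matches describe letters in a window and not bound sites.

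Libraries held between 620506 and 1351130 estimated counts assigned to genes. The knockout replicate 3 at 3 DPI stood apart with 15387 genes detected against 19996 to 21879 in the other 15. The counts of Terf2, summed over the whole gene, were 76.4 ± 12.5 CPM (counts scaled to library size, mean ± SD, n = 4) in uninjured controls and 45.6 ± 13.3 in uninjured knockouts. In CPM these libraries did not overlap, but in TPM (counts scaled for transcript length and then for the library) they did, with controls from 59.6 and knockouts up to 67.9. The fitted log2 fold change of Terf2 was -0.62 ± 0.27 (SE, edgeR adjusted p = 0.199), which did not pass the thresholds used here (adjusted p under 0.02 and fold change over 1.5). At 3 DPI they were 43.8 ± 6.1 in controls and 57.8 ± 28.4 in the libraries labelled TRF2 knockout, so Terf2 was not lower there, and the 3 DPI genotype comparison is a comparison of labels. A knockout library at 3 DPI here means one so labelled. Sample names carry prefixes whose meaning the labels do not give. In the uninjured libraries each prefix belongs to 1 genotype, so prefix and genotype cannot be told apart.

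Compared per length, in TPM, Ddit4 was the most abundant of the 10 messages in uninjured controls at 529.3 ± 94.6 (SD, n = 4). Sesn1 followed at 101.2 ± 11.3 and Deptor, an inhibitor of mTOR, at 87.7 ± 19.1, and these ranges overlapped each other. Tsc2, Rptor (the scaffold raptor), Mtor, Sesn3, Rheb and Tsc1 lay close together between 35.9 and 51.9 on average, and each overlapped its neighbour in that order. Sesn2 was lowest on average at 13.7 ± 5.2, clear of its neighbour Tsc1. Its highest library, at 20.98, lay above the lowest of Rheb, at 19.45. In uninjured knockouts Ddit4 was still highest at 209.6 ± 50.7 TPM, while Sesn2, at 44.4 ± 7.7, ranked above Tsc1, Rheb and Sesn3. At 3 DPI Ddit4 averaged 93.8 ± 25.98 TPM in controls and 95.3 ± 49.2 in knockouts.

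**Figure D1:**
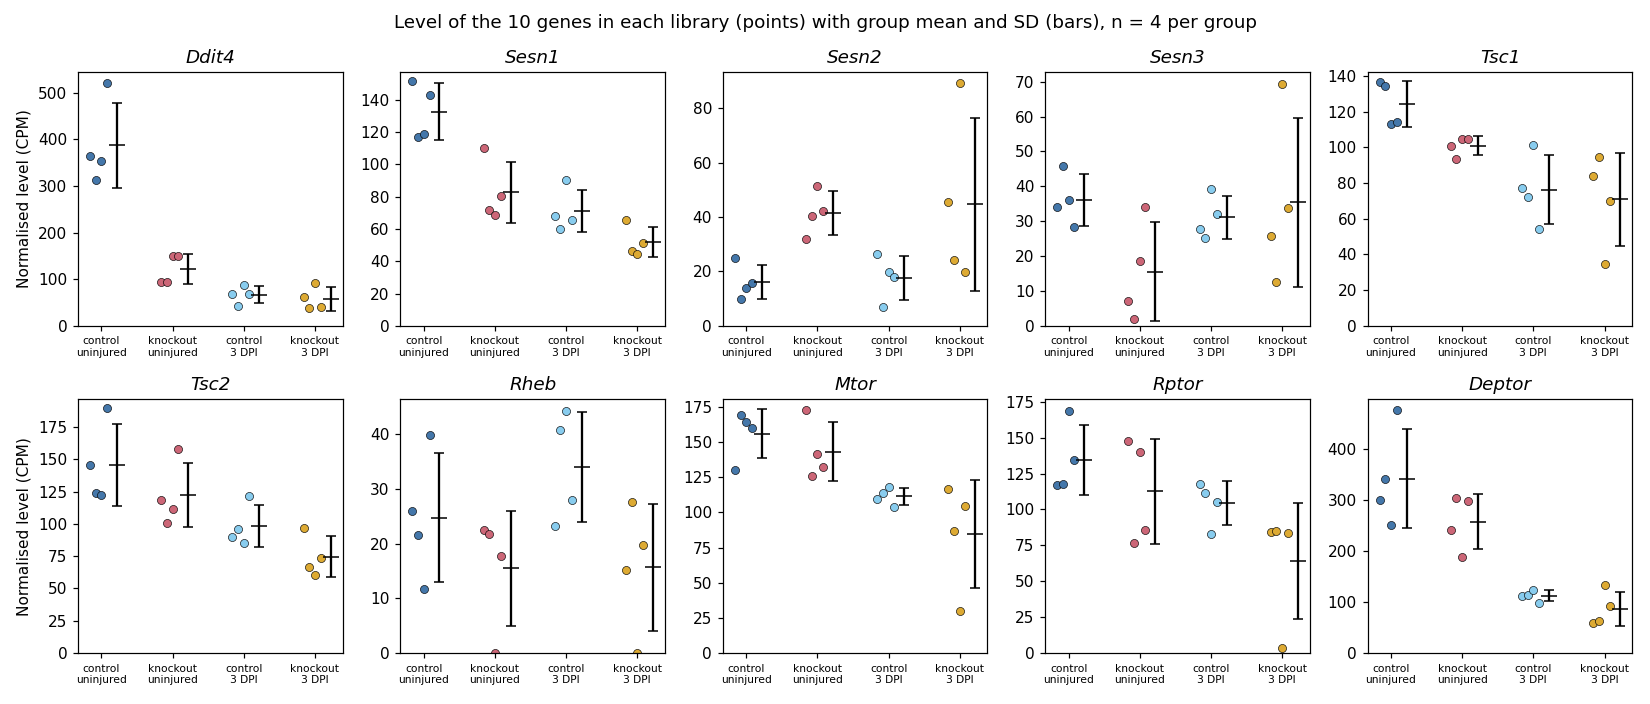
Level of each of the 10 genes in CPM (vertical axes, each from 0) in the 16 libraries, with points for libraries and bars for the group mean and SD (n = 4 per group). Ddit4 in uninjured controls, from 312 to 521 CPM, lies above every other library, and Sesn2 in uninjured knockouts, from 32.0 to 51.5 CPM, lies above both control groups.

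In uninjured MuSCs, the knockout libraries had a lower level of Ddit4 and a higher level of Sesn2, while the core of the switch (Tsc1, Tsc2, Rheb, Mtor and Rptor) did not pass the thresholds. Ddit4 read 364, 312, 354 and 521 CPM in control replicates 1 to 4 and 94.7, 94.5, 150.3 and 149.8 CPM in the knockouts. All 4 knockout libraries were thus far below the lowest control. The means were 387.5 ± 91.5 and 122.3 ± 32.0 CPM, from 1592 and 386 counts in all. The fitted log2 fold change was -1.54 ± 0.21 (SE; 95% interval -1.96 to -1.13), or 2.91-fold lower.

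Sesn2, a leucine-sensing sestrin that restrains mTORC1, read 25.0, 9.9, 13.95 and 15.6 CPM in controls and 32.0, 40.5, 51.5 and 42.2 CPM in knockouts. Every knockout library was higher than every control, on counts of only 11 to 39 per library. The log2 fold change was 1.48 ± 0.38 (SE; 95% interval 0.74 to 2.22), or 2.78-fold higher. Sesn1, the sestrin most tied to muscle and to p53, was between 117.1 and 151.9 CPM in controls and between 68.7 and 110.1 CPM in knockouts, without overlap, at -0.55 ± 0.22 (SE). It thus lay in the opposite direction to Sesn2. Sesn3, a FoxO target, read 34.0, 45.9, 36.0 and 28.3 CPM in controls and 7.1, 2.1, 18.6 and 34.1 CPM in knockouts, where replicate 4 overlapped the controls. Its log2 fold change was -1.15 ± 0.47 (SE).

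Neither the Tsc1-Tsc2 brake nor its target passed the thresholds. Tsc1 was between 112.8 and 136.7 CPM in controls and between 93.5 and 104.9 CPM in knockouts, without overlap, but its fitted difference was -0.18 ± 0.21 (SE), an interval of -0.60 to 0.23. Tsc2, its GTPase-activating partner, differed by -0.13 (95% interval -0.55 to 0.29) and overlapped. Rheb, the GTPase that activates mTORC1, differed by -0.52 ± 0.52 (SE) and had 0 counts in knockout replicate 3, which allows up to 4.29 CPM. Mtor, the kinase, was 155.9 ± 17.4 CPM in controls and 143.1 ± 20.9 in knockouts, with a fitted difference whose 95% interval ran from -0.40 to 0.40. Rptor differed by -0.13 (95% interval -0.58 to 0.32) and Deptor by -0.28 ± 0.20 (SE). The intervals of these 6 genes included no change, which does not show that their levels were equal.

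Of the 10 genes, Ddit4 (lower) and Sesn2 (higher) passed the thresholds used throughout, an edgeR adjusted p under 0.02 and a fold change over 1.5. Of all 14048 genes tested 2.63% were lower and 0.584% higher by the same rule. In CPM, groups did not overlap for 4 of the 10 (Ddit4, Sesn1, Sesn2 and Tsc1) against 12.6% of all genes. In TPM, Sesn1 and Tsc1 did overlap, with knockouts up to 114.2 and 39.6 and controls up to 113.2 and 39.1. Since this contrast took part in choosing the genes, nothing is read from these counts. Sesn2 fell short when control replicate 2, 3 or 4 or knockout replicate 2, 3 or 4 was left out. It also fell short with all 16 libraries in 1 fit and with the authors' length-rescaled table. Ddit4 fell short with a robust limma fit of log2 CPM and with that rescaled table, but not with limma-voom.

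The defining MuSC markers were present but lower in the uninjured knockouts as a group, as was Ddit4. The summed level of 8 markers was 2430 to 3960 CPM in controls and 1510 to 2050 CPM in knockouts, without overlap, and 6 of the 8 (Vcam1, Itga7, Cd34, Sdc4, Calcr and Cxcr4) passed as lower. Macrophage and myeloid markers summed to 62.4 to 106 CPM in controls and 105 to 170 CPM in knockouts, with none of the 6 tested past the thresholds. Of 6 smooth muscle and pericyte markers 4 were above 0 and 2 (Rgs5 and Cspg4) passed as higher, while Acta2 (-0.54 ± 0.22 SE) and Tagln (-0.46 ± 0.22) were below 0, and their sums overlapped at 928 to 1360 CPM in controls and 780 to 1850 CPM in knockouts. Of 5 Schwann cell markers 4 were above 0 and none passed, with sums of 357 to 423 and 351 to 530 CPM. The unadjusted edgeR p was under 0.05 for 4 of them, against 2736 of all 14048 genes. It was also under 0.05 for 8 MuSC, 5 smooth muscle and pericyte, 3 fibroblast and 1 myeloid markers. Of 5 fibroblast markers tested, Dcn passed as higher and Dpt as lower. In bulk libraries fewer cells of a type and less RNA per cell cannot be told apart, and the part of cell makeup in the Ddit4 difference was not tested.

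**Figure D2:**
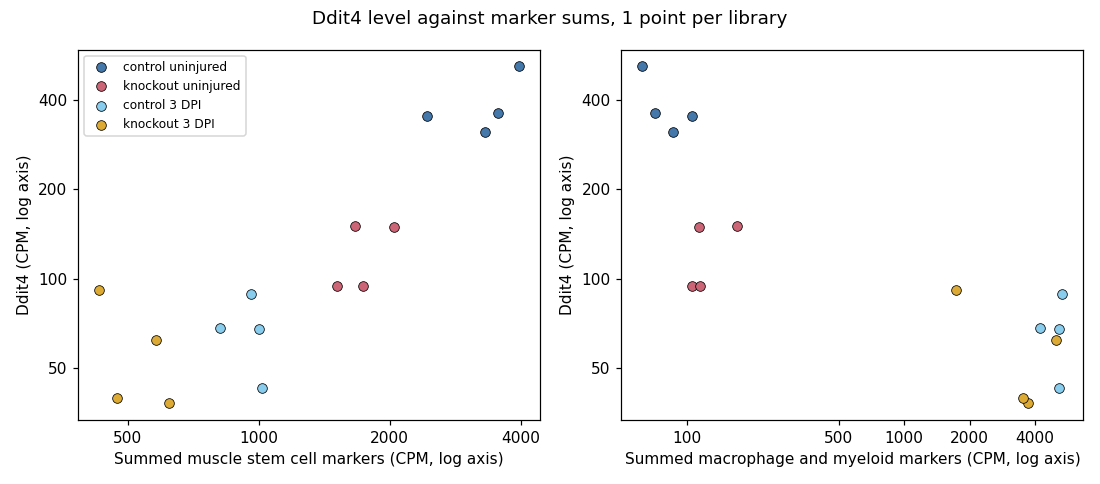
Ddit4 level in CPM (vertical, log axis) against the summed CPM of 8 muscle stem cell markers (left, log axis) or 8 macrophage and myeloid markers (right, log axis), with 1 point per library and colours for the 4 groups. Uninjured controls hold the highest MuSC marker sums, from 2430 to 3960 CPM, and the highest Ddit4, while all 3 DPI libraries hold myeloid marker sums of 1730 CPM or more.

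Among 75 other genes of the mTOR pathway, 70 were tested in uninjured MuSCs and 2 passed, both lower in the knockout, a share near that of all genes (2.63% lower and 0.584% higher). Eif4b, an initiation factor that promotes unwinding of mRNA and is phosphorylated through the S6 kinases, was 772.3 ± 155.3 CPM in controls and 353.8 ± 127.8 in knockouts (log2 fold change -1 ± 0.21 SE, edgeR adjusted p = 0.00188). Rps6, the ribosomal protein that S6 kinase phosphorylates, was 635.4 ± 83.1 and 331.2 ± 122.8 CPM (-0.82 ± 0.21 SE, adjusted p = 0.0149), and reads of its processed pseudogenes may be shared with it. Neither group pair overlapped. The median of the 70 was -0.11 against 0.06 over all genes, with 47 below 0. By branch, the median was -0.42 over 15 outputs, -0.30 over 13 PI3K and AKT genes, -0.22 over 10 AMPK genes, -0.08 over 12 GATOR and amino acid sensor genes, 0.09 over 11 Rag and lysosome genes and 0.07 over 8 partners of the mTOR complexes. The one other gene tested, Ddit4l, the paralogue of Ddit4, was at 1.12 ± 0.51 (SE) and did not pass, with 10.2 ± 2.0 CPM in controls and 20.5 ± 9.5 in knockouts and no overlap. Eif4b fell short without knockout replicate 3, and Rps6 without any one of control replicates 1, 2 and 4 and knockout replicates 1, 3 and 4. Both fell short with robust limma on log2 CPM, with all 16 libraries in 1 fit and with the rescaled table.

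**Figure D3:**
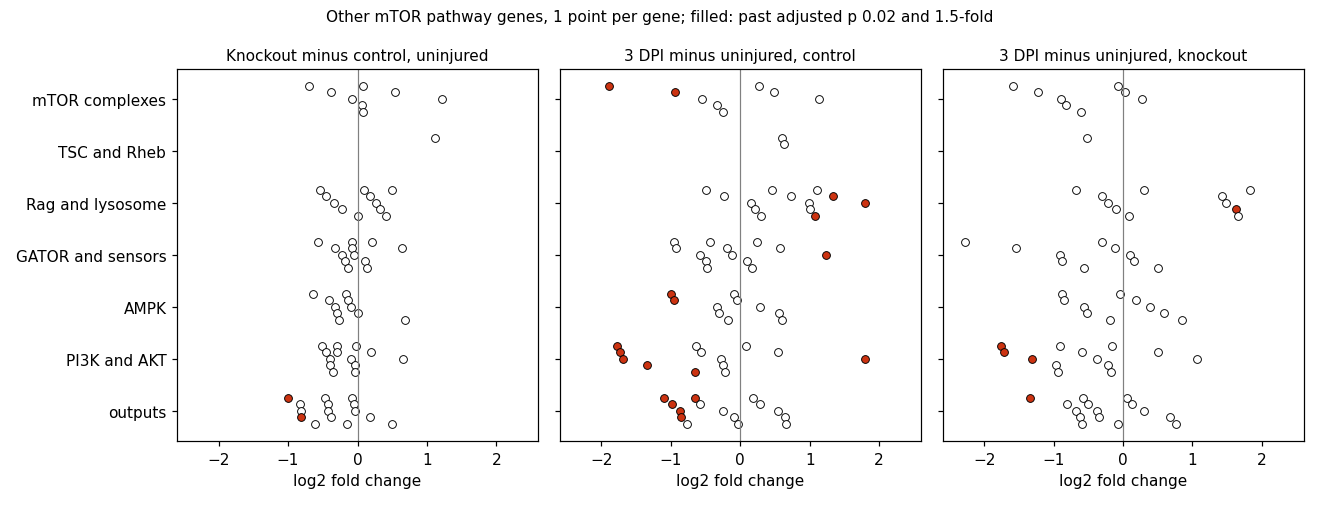
Log2 fold change (horizontal axes) of mTOR pathway genes outside the 10, 1 point per tested gene in rows by branch, for 3 comparisons, with filled points past both thresholds. In the uninjured genotype comparison only Eif4b and Rps6 are filled, while 19 points are filled for injury in controls and 5 for injury in knockouts.

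Genes known to respond to the same stimuli as Ddit4 and Sesn2 gave mixed calls before injury, where 2.63% of all genes were lower and 0.584% higher. Of 11 glucocorticoid-responsive genes, 3 fell, namely Tsc22d3, the leucine zipper GILZ (-1.11 ± 0.22 SE, adjusted p = 0.000801), the metallothionein Mt2 (-1.03 ± 0.21, adjusted p = 0.00163) and the phosphatase Dusp1 (-0.95 ± 0.20, adjusted p = 0.00149). The median of the list was -0.58, but Fkbp5, a classical glucocorticoid target, was at 0.66 ± 0.23 (SE) without passing. Of 8 hypoxia-responsive genes tested, Slc2a1 alone, the glucose transporter GLUT1, passed, and it rose (1.56 ± 0.30 SE, adjusted p = 0.000716), while Vegfa was at -0.12 ± 0.22. Of 8 ATF4-responsive genes tested, the list's only call was Sesn2 itself, and Atf4 (-0.07 ± 0.21 SE), Ddit3 (-0.02 ± 0.42) and Trib3 (0.47 ± 0.52) did not pass.

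Sesn1 is itself on the list of p53-responsive genes, of which 7 of 10 rose and none fell, with a list median of 1.57 against 0.06 over all genes. Cdkn1a, the cell cycle inhibitor p21, went from 103.9 ± 16.1 to 491.7 ± 66.2 CPM (2.37 ± 0.20 SE, edgeR adjusted p = 3.5e-11). Phlda3, an AKT repressor (2.07 ± 0.22, adjusted p = 9.68e-09), and Zmat3, an RNA-binding growth suppressor (1.82 ± 0.25, adjusted p = 4.41e-06), followed. Of 10 FoxO-responsive genes, a list that includes Sesn3, 3 fell: the factors Foxo4 (-1.03 ± 0.23 SE, adjusted p = 0.00335) and Foxo1 (-0.78 ± 0.19, adjusted p = 0.0076) and the redox protein Txnip (-0.97 ± 0.22, adjusted p = 0.00357). Of 11 immediate early genes, Nr4a1 and Fos fell. Leaving out 1 library kept Foxo4 and Txnip in 6 of 8 cases, Foxo1 in 4 and Fos in 2, and Tsc22d3, Mt2, Dusp1, Cdkn1a, Phlda3 and Zmat3 in all 8.

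**Figure D4:**
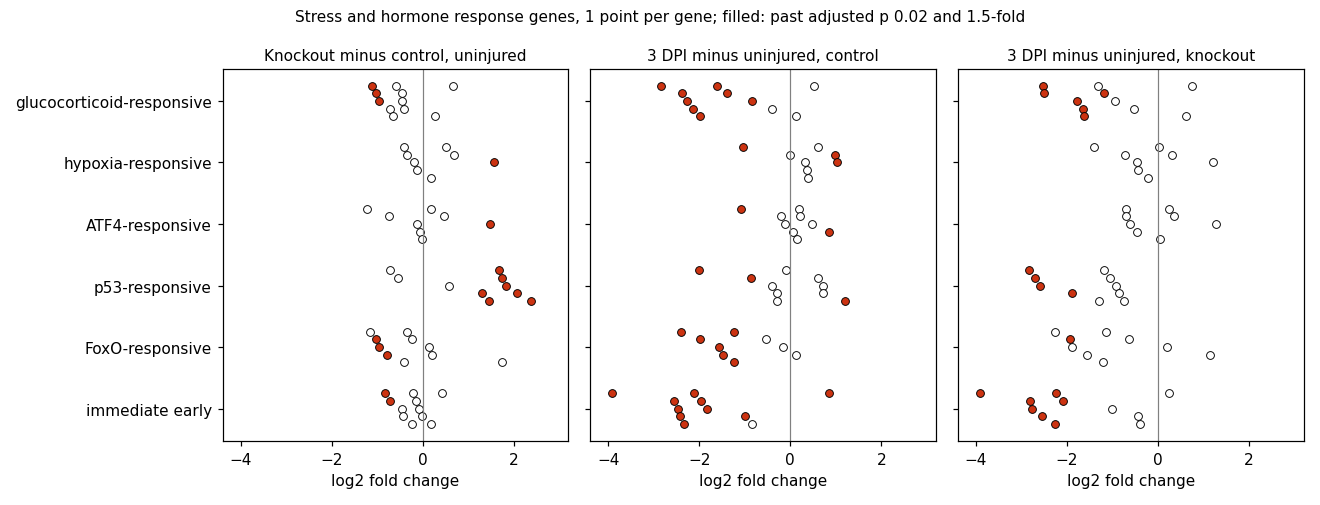
Log2 fold change (horizontal axes) of genes known to respond to glucocorticoids, hypoxia, ATF4, p53 and FoxO and of immediate early genes, 1 point per tested gene, for 3 comparisons, with filled points past both thresholds. Before injury 7 p53-responsive genes are filled to the right, and after injury in controls 8 glucocorticoid-responsive genes are filled to the left.

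At 3 DPI, Ddit4 was low under both genotype labels and the libraries overlapped. Ddit4 read 68.0, 42.8, 88.5 and 67.5 CPM in controls and 61.9, 38.1, 91.7 and 39.6 CPM in the libraries labelled TRF2 knockout. The highest knockout value came from replicate 3, the library that stood apart. The fitted difference was -0.15 ± 0.38 (SE; 95% interval -0.90 to 0.59), and -0.50 ± 0.32 without that library. Within the prefix that holds both genotypes, the first 2 replicates of each group, the controls read 68.0 and 42.8 CPM and the knockouts 61.9 and 38.1 CPM.

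Sesn2 read 26.3, 6.8, 19.7 and 18.1 CPM in 3 DPI controls and 45.6, 24.2, 89.3 and 19.8 CPM in knockouts. Its log2 fold change was 1.4 ± 0.59 (SE), close in size to that before injury, but the groups overlapped and it was 0.79 ± 0.49 without replicate 3. Sesn3 was 31.1 ± 6.2 and 35.4 ± 24.3 CPM, and its difference of 0.24 became -0.36 without replicate 3. Sesn1 differed by -0.41 (95% interval -1 to 0.18), Tsc1 by -0.06 (-0.74 to 0.62), Tsc2 by -0.36 (-0.89 to 0.17), Mtor by -0.36 (-1.05 to 0.33) and Deptor by -0.32 (-0.91 to 0.28). Rheb differed by -1.08 ± 0.74 (SE) and Rptor by -0.66 ± 0.56, with 0 and 3 counts in replicate 3, and by -0.69 and -0.28 without it. Leaving out that library also moved Mtor to -0.10 ± 0.23 (SE), Deptor to -0.63 ± 0.25 and Tsc1 to 0.15 ± 0.27, none of which passed.

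None of the 10 passed with edgeR at 3 DPI. The share of all 14559 genes that passed was 0% in each direction, with 1362 genes at an unadjusted p under 0.05, and groups did not overlap for 7.84% of genes and for 0 of the 10. None of the 10 passed with DESeq2 or either limma fit. Of 71 pathway genes tested none passed and 4 had an unadjusted p under 0.05. The size of difference fitted before injury lay outside the 3 DPI interval for Ddit4 and inside it for Sesn2 (0.24 to 2.56). Both genes were chosen with the uninjured difference known, and its SE is left out here, so this is a description. The fitted change of the genotype effect with injury passed for neither gene.

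In control MuSCs, 4 of the 10 genes passed with injury, namely Ddit4, Deptor, Sesn1 and Tsc1, and each was lower. Ddit4 went from 387.5 ± 91.5 to 66.7 ± 18.7 CPM, with the highest 3 DPI library at 88.5 and the lowest uninjured one at 312, a log2 fold change of -2.49 ± 0.22 (SE; 95% interval -2.92 to -2.06) or 5.63-fold lower. Deptor read 299.3, 341.3, 251.1 and 476.8 CPM before injury and 112.7, 114.8, 123.9 and 97.9 CPM after it, without overlap, at -1.56 ± 0.20 (SE) or 2.95-fold lower. Sesn1 went from 132.7 ± 17.6 to 71.1 ± 13.3 CPM (-0.86 ± 0.21 SE) and Tsc1 from 124.4 ± 12.8 to 76.2 ± 19.4 CPM (-0.67 ± 0.22 SE), both without overlap.

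The other 6 genes did not pass. Tsc2 (-0.52 ± 0.21 SE) and Mtor (-0.45 ± 0.20 SE) were lower without overlap, from 145.5 to 98.3 and from 155.9 to 111.3 CPM on average. Rptor differed by -0.33 (95% interval -0.74 to 0.07), Sesn3 by -0.17 (-0.79 to 0.45), Sesn2 by 0.15 (-0.75 to 1.04) and Rheb by 0.51 (-0.19 to 1.20). Of all 15356 genes 9.46% were lower and 10.8% higher by the same rule, and groups did not overlap for 6 of the 10 against 24.3% of genes. As this contrast was among the known results, these counts are a description. Ddit4, Sesn1 and Deptor passed under all 18 alternatives and Tsc1 under 7 of them. Within the prefix shared by control replicate 4 before injury and replicates 3 and 4 at 3 DPI, Ddit4 was 521 against 88.5 and 67.5 CPM.

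The comparison of injured with uninjured knockouts uses the 3 DPI libraries labelled TRF2 knockout, in which Terf2 was not lower. Ddit4 went from 122.3 ± 32.0 to 57.8 ± 25.1 CPM, a log2 fold change of -1.14 ± 0.36 (SE; 95% interval -1.84 to -0.44), with the lowest uninjured library at 94.5 and the highest at 3 DPI at 91.7 CPM. It did not pass, but did without 3 DPI replicate 3, at -1.43 ± 0.31. Deptor read 241.4, 304.4, 187.5 and 298.3 CPM before injury and 59.6, 63.4, 132.6 and 92.0 CPM after it, and was the only one of the 10 to pass, at -1.62 ± 0.31 (SE) or 3.08-fold lower. Sesn1 (-0.74 ± 0.32), Tsc2 (-0.78 ± 0.28) and Mtor (-0.83 ± 0.36) were lower without overlap and did not pass. Sesn3 was at 1.15 ± 0.76 (SE), Tsc1 at -0.58 ± 0.33, Rptor at -0.88 ± 0.57, Sesn2 at 0.05 ± 0.50 and Rheb at -0.06 ± 1.02. Without 3 DPI replicate 3 these were 0.62 for Sesn3, -0.32 for Tsc1, -0.46 for Rptor, -0.51 for Sesn2 and 0.37 for Rheb, and Mtor was at -0.52, and none passed.

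Of all 14578 genes, 1.61% were lower and 2.43% higher in this comparison by the same rule. In CPM, groups did not overlap for 5 of the 10 against 13.6% of genes. In TPM, Ddit4 did overlap, from 156.5 in uninjured knockouts and up to 165.9 at 3 DPI. Deptor fell short without uninjured replicate 2 or 4 or 3 DPI replicate 1, 2 or 4. Both injury comparisons coincide with a large change in cell type markers, in which cell number and RNA per cell cannot be told apart. Macrophage and myeloid markers, which CD45 and CD11b depletion should remove, summed to 4230 to 5350 CPM in 3 DPI controls and 1730 to 5010 CPM in 3 DPI knockouts, with none of the 8 at 0 in either group. All 8 rose in controls and 7 in knockouts, led by Lyz2 (8.77 ± 0.31 SE and 7.01 ± 0.63). MuSC markers summed to 815 to 1020 and 430 to 623 CPM, and Pax7 went from 1217 to 152.4 and from 772.0 to 86.6 CPM. Of the 8 MuSC markers, 7 passed as lower and 1 as higher in controls. In knockouts 5 passed as lower, and 1 was above 0 without passing. Fibroblast markers summed to 562 to 901 CPM before injury and 1450 to 2140 CPM at 3 DPI in controls. In knockouts these sums were 478 to 912 and 1150 to 2340 CPM. Of the 6 markers, 5 passed as higher and 1 (Dpt) as lower in controls, and 1 passed as higher in knockouts. Myofibre markers summed to 644 to 755 CPM before injury and 1050 to 1430 CPM at 3 DPI in controls, where 2 passed as higher. In knockouts these sums were 691 to 895 and 859 to 1740 CPM, and none passed. In controls 2 smooth muscle and pericyte markers and 1 endothelial marker passed as lower, and none did in knockouts. The part of cell makeup in the lower Ddit4 and Deptor was not tested.

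**Figure D5:**
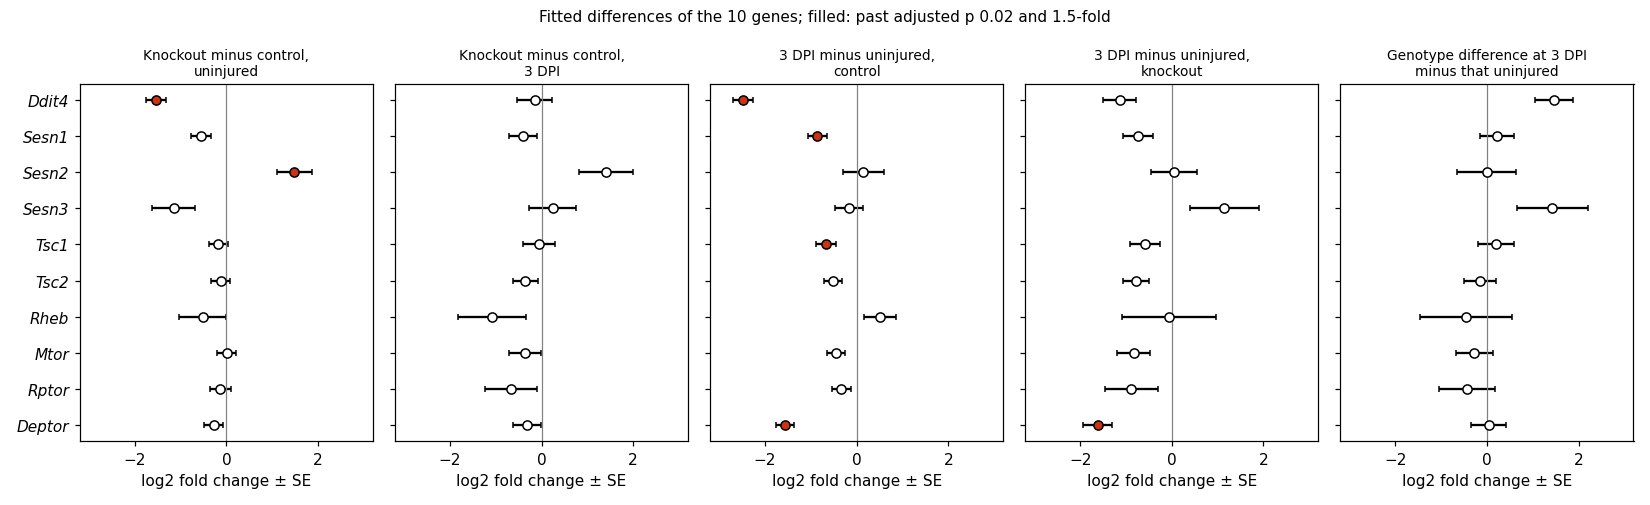
Fitted log2 fold change (horizontal axes) of the 10 genes, with bars of 1 SE, in the 4 pairwise comparisons and in the difference between the genotype effects, with filled points past both thresholds. Ddit4 and Sesn2 are filled before injury, none at 3 DPI, Ddit4, Sesn1, Tsc1 and Deptor for injury in controls, and Deptor for injury in knockouts.

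The change of the genotype effect with injury was fitted on all 16 libraries. For Ddit4 it was 1.46 ± 0.41 (SE; 95% interval 0.65 to 2.27), and without 3 DPI knockout replicate 3 it was 1.04 ± 0.37. It did not pass, and since the uninjured difference helped to choose Ddit4 it is a description. Sesn3 was at 1.43 ± 0.78 and, without that library, 0.77 ± 0.67. Sesn2 was at -0.01 (95% interval -1.27 to 1.26), and Sesn1 (0.23), Tsc1 (0.20), Tsc2 (-0.15), Rheb (-0.46), Mtor (-0.27), Rptor (-0.44) and Deptor (0.04) had intervals that included 0. Without that library Sesn2 was at -0.68 ± 0.62 (SE), Deptor at -0.36 ± 0.33, Tsc1 at 0.32, Rheb at -0.18, Mtor at -0.11 and Rptor at -0.16, and none passed. None of the 10 passed with edgeR, DESeq2 or either limma fit, where 0% of all 16822 genes were higher and 0.0178% lower by the rule. Of the p53-responsive genes, 2 passed, namely Cdkn1a (-2.40 ± 0.32 SE, edgeR adjusted p = 0.000944) and Ccng1 (-2.40 ± 0.41, adjusted p = 0.0181). Cdkn1a passed under all 25 alternatives and Ccng1 under 9, with 3 of the 16 that left out 1 library.

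Around the 10 genes, injury in controls went with a change in 19 of 74 pathway genes tested, 14 lower and 5 higher, where 9.46% of all genes were lower and 10.8% higher, with a median of -0.15 against 0.07 over all genes. The largest falls were of Prr5, a partner of mTORC2 (58.3 ± 15.5 to 15.4 ± 2.8 CPM, -1.89 ± 0.33 SE, edgeR adjusted p = 1.1e-05), Pik3r1, the regulatory subunit of PI3K (698.1 ± 44.1 to 199.1 ± 37.3 CPM, -1.77 ± 0.19, adjusted p = 4.77e-10), and the insulin receptor substrate Irs1 (446.6 ± 39.2 to 130.3 ± 27.2 CPM, -1.73 ± 0.20, adjusted p = 1.2e-09). The insulin and IGF branch held 5 falls among 13 genes, with Igf1r and Irs2 also among them. The largest rises were of Pik3cb, a catalytic subunit of PI3K (1.80 ± 0.33, adjusted p = 2.77e-05), Fnip2, a folliculin partner acting on the Rag GTPases (1.79 ± 0.20, adjusted p = 9.47e-10), and Lamtor1, the lysosomal anchor of the Rags (1.34 ± 0.29, adjusted p = 0.000341). Of 13 Rag and lysosome genes 3 rose and 11 were above 0, with a median of 0.73.

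In knockouts, 5 of 68 pathway genes tested passed after injury, 4 lower and 1 higher, where 1.61% of all genes were lower and 2.43% higher, with a median of -0.30 against 0.01 over all genes. Irs1 (-1.76 ± 0.34 SE, edgeR adjusted p = 0.00507), Pik3r1 (-1.72 ± 0.26, adjusted p = 0.000703), Grb10, an adaptor that damps insulin signalling and is an mTORC1 substrate (-1.34 ± 0.27, adjusted p = 0.00785), and Irs2 (-1.31 ± 0.27, adjusted p = 0.00743) fell, and Fnip2 rose (1.63 ± 0.27, adjusted p = 0.00177). Without 3 DPI knockout replicate 3 the count was 10. Leaving out 1 library kept Pik3r1 and Fnip2 in all 8 cases, Irs1 in 5, Irs2 in 3 and Grb10 in 2. None of 73 pathway genes passed for the change of the genotype effect with injury. Of these 1 had an unadjusted edgeR p under 0.05, as did 966 of all 16822 genes. Both injury comparisons carry the cell type marker changes given above.

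After injury in controls, where 9.46% of all genes were lower and 10.8% higher with a median of 0.07, 8 of 11 glucocorticoid-responsive genes fell, with a median of -1.61. In knockouts, where 1.61% of all genes were lower and 2.43% higher with a median of 0.01, 6 of the 11 fell, with a median of -1.31. Cebpd, a transcription factor, was at -2.85 ± 0.22 (SE) in controls (edgeR adjusted p = 1.59e-14) and -2.5 ± 0.32 in knockouts (adjusted p = 0.000197). FoxO-responsive genes fell in 6 of 9 cases in controls and 1 of 9 in knockouts, with medians of -1.24 and -1.21. None of the 10 genes on that list passed for the change of the genotype effect with injury, with a median of 0.15. Immediate early genes, known to rise during the dissociation of muscle, fell in 9 of 11 cases in controls and 7 of 11 in knockouts, led by Egr1 (-3.91 ± 0.22 and -3.92 ± 0.32 SE). In controls 1 of the 11, Atf3, rose (0.84 ± 0.20 SE, edgeR adjusted p = 0.00106). Of the p53-responsive genes, 1 rose and 2 fell in controls, Sesn1 among the latter, and 4 fell in knockouts, namely Trp53inp1, Eda2r, Phlda3 and Cdkn1a. The p53-responsive list had a median of -0.20 in controls and -1.23 in knockouts. Of 8 hypoxia-responsive genes tested in controls, Hif1a (0.98) and Slc2a1 (1.02) rose and Ndrg1 (-1.03) fell, with a list median of 0.38. In knockouts none of 8 passed, with a median of -0.33. Of 9 ATF4-responsive genes tested in controls, Atf3 rose and Atf5 fell, with a median of 0.15. In knockouts none of 8 passed, with a median of -0.21.

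Over the 16 libraries, the genes whose log2 CPM followed Ddit4 most closely among 16486 genes were Nrep (Pearson r = 0.963), Errfi1 (0.958), Arhgap24 (0.954) and Ank3 (0.950). Errfi1, a feedback inhibitor of EGF receptor signalling, averaged 500.3 ± 87.4, 201.7 ± 16.4, 99.6 ± 23.6 and 69.6 ± 23.2 CPM in control uninjured, knockout uninjured, control 3 DPI and knockout 3 DPI libraries. All 4 shared that order from uninjured control to uninjured knockout to the 3 DPI groups. These values describe libraries that share their 4 groups and their cell makeup, and none of the 4 stayed among the top 5 genes by Spearman correlation, 1 (Nrep) did without 3 DPI knockout replicate 3, and none did within the 8 uninjured or the 8 injured libraries alone.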

How the data were processed

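The 10 genes and the pathway, regulator and marker lists were chosen with earlier results of these data known. Libraries were rRNA-depleted and randomly primed with a kit that adds molecular identifiers. Per the submitters' processing notes, reads were trimmed (Trim Galore 0.6.7), aligned (STAR 2.6.1d) and quantified with Salmon 1.5.2 on GRCm38. The authors deposited estimated counts per gene and a second table rescaled for transcript length. The study's methods name a later STAR release. Whether reads were collapsed by molecular identifier, and the annotation release, are not given in the sources used here. Estimated counts were rounded. Each comparison was fitted on its own 8 libraries, and the change of the genotype effect on all 16, with edgeR 4.0.16 in R 4.3.3 (filterByExpr, TMM, robust quasi-likelihood test, Benjamini-Hochberg adjustment over all genes tested). A gene passed at adjusted p under 0.02 and fold change over 1.5. The SE was the log2 fold change over the root of F, and intervals are 1.96 SE. CPM used TMM factors over all 16 libraries, so ratios of CPM means differ slightly from fitted fold changes. TPM was each value of the rescaled table as a share of its column, on the usual scale. Total counts ran from 620506 to 1351130, and a count of 0 allows up to 3 counts, for counting error only. Gene positions came from GENCODE M21 (95.8% of symbols matched) and promoters from RefSeq. Named were the 10 genes, Terf2 and, from the lists, genes that passed, mainly the 3 largest rises and falls per comparison, and the 5 genes most correlated with Ddit4 (mean log2 CPM of at least 3, prior count 2). A result that this rule named but that is withheld is not reported here. Other genes named from the lists (Fkbp5, Vegfa, Atf4, Ddit3, Trib3) were chosen after their values were seen. Scripts were tested on simulated data. Alternatives were 2 fits with limma 3.58.1 (robust on log2 CPM, and voom), DESeq2 1.42.0, library size alone, other filters, all 16 libraries in 1 fit, a replicate block, the rescaled table and leaving out each library.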

Additional observations from a re-analysis of the deposited data

Results flagged for a closer look

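Of 40 sets of 4 libraries checked for a library that stands apart (10 genes in 4 groups), 1 was found. Chance alone would flag about 1 of every 20 sets checked, so the 1 found is not more than that rate. Rptor in the library labelled TRF2 knockout replicate 3 at 3 DPI was at 3.72 CPM, from 3 counts, while the other 3 libraries of that group were between 83.9 and 85.3 CPM, so that the gap to the nearest took 0.982 of the whole range. The same library had 0 counts of Rheb, the lowest Mtor (29.8 CPM) and Tsc1 (34.7 CPM) and the highest Ddit4, Sesn2 and Sesn3 of its group, and the fewest genes detected of all 16.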

How the results depend on the processing

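Leaving out each library in turn gave 1 to 2 of the 10 genes past the thresholds before injury (Ddit4 in all 8 cases), 0 to 2 in injured against uninjured knockouts, and none at 3 DPI or for the change of the genotype effect, where the value for Ddit4 ran from 1.04 to 1.63. Pathway genes past the thresholds ran from 0 to 2 before injury and from 2 to 10 for injury in knockouts. Before injury, robust limma on log2 CPM left 1 of the 10 genes (Sesn2) and 0 pathway genes, while limma-voom kept 2 and 2, all 16 libraries in 1 fit left 1 (Ddit4) and 0, the table rescaled for length left 0 and 0, and library size alone left 1 pathway gene (Eif4b). For injury in controls, pathway counts were 9 with all 16 libraries and 12 with the rescaled table, against 19. For injury in knockouts, all 16 libraries gave 2 of the 10 (Ddit4 and Deptor) and 8 pathway genes, DESeq2 and robust limma 8 pathway genes each, and the table rescaled for length 0 and 1. Same-numbered libraries did not deviate together in every pair, so replicate numbers were not taken as pairs. With a replicate block, 0 of the 10 passed for injury in knockouts, against 1 without it, and Tsc1 fell short for injury in controls. Under the block 17 of 19 pathway genes still passed for injury in controls, 4 of 5 pathway genes (not Grb10) and 15 of 18 regulator genes for injury in knockouts, and 1 of 2 regulator genes (not Ccng1) for the change of the genotype effect. Counts of the 10 and of pathway genes in the other comparisons stayed within 1.5 times. Of the 16 genes of the regulator lists outside the 10 that passed before injury, 5 still passed with robust limma, 6 with all 16 libraries, 3 with the rescaled table and 12 to 16 when 1 library was left out, and of 10 marker genes 4, 2, 0 and 5 to 10. Library size alone moved the median of all genes before injury from 0.06 to 0.24, and relative to that median Ddit4 stayed lower and Sesn2 higher. None of the 10 genes or list genes that had passed changed sign under an alternative that was run. The causes were not tested.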
